A study of Mus musculus with 3 samples.

Results

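*Cer1*, *Hhex*, *Trh*, *Gsc*, *Lhx1*, *Cxcr4*, *Noto*, and *Ripply3* are 8 genes of the anterior definitive endoderm and of the organizer tissues, the node, the notochord, and the prechordal plate. They were chosen by gene symbol, and 7 of the 8 were found among the 30854 symbols of the table. *Ripply3* has no row under that name. The table has a row for *Dscr6*, which RefSeq lists as an older symbol of *Ripply3* alone, and its values are given separately. RNA came from the embryonic region of wild-type mouse embryos at the early headfold (EHF) stage, cut from the extraembryonic part, and was hybridized to 3 Illumina Mouse-6 arrays. The labels name the strain Cd-1, while the study's methods name ICR, and neither says whether an array holds 1 embryo or a pool. The 3 arrays form a single group with no other genotype, treatment, or stage, so the questions that can be asked are which genes gave signal above background and how far the arrays differed. Nothing in the labels says that the replicates were separate litters, so the spread between arrays may be partly technical. A detection p compares a signal with the negative controls of its own array and measures no spread between arrays. The limma p-values measure spread between these arrays alone, in the main test as a single variance shared by all symbols.

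Definitive endoderm arises from the anterior primitive streak, and its cells insert themselves among those of the visceral endoderm, so that both contribute to the surface epithelium. The node and its derivatives, which leave the streak at about the same time, lay down the midline and pattern the neural plate, in part by secreting antagonists of Nodal, BMP, and Wnt signals. Several genes of this set are used more than once. *Cer1*, *Hhex*, and *Lhx1* mark the anterior visceral endoderm before they mark definitive endoderm or midline tissue, and *Hhex*, *Lhx1*, and *Cxcr4* are also expressed in mesoderm derivatives. In RNA from a whole region, fewer cells of a type and less RNA per cell cannot be told apart.

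The annotated promoters of all members but *Ripply3* were matched in the RefSeq table of GRCm38.p6. The 250 bases before the start are shown for *Trh* and *Lhx1*, whose signals stood furthest above their own background, and for *Cer1*, whose call depended on how its probes were combined. The *Trh* window is chr6:92244651-92244900 (minus strand), that of *Lhx1* is chr11:84525535-84525784 (minus strand), and that of *Cer1* is chr4:82885152-82885401 (minus strand). Capitals mark the motifs found, TATAA in *Trh*, CCAAT on the opposite strand in *Lhx1*, and TAATTA in *Cer1*.
Trh: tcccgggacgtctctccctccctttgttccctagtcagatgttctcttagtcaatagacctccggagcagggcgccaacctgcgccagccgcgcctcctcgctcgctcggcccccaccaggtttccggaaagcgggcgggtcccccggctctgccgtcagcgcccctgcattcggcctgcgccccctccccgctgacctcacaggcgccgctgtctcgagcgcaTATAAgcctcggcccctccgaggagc
Lhx1: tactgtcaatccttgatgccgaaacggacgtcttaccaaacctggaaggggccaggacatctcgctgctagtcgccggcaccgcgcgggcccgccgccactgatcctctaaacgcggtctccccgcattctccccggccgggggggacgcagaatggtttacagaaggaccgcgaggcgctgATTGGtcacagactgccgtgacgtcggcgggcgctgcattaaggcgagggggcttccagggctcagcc
Cer1: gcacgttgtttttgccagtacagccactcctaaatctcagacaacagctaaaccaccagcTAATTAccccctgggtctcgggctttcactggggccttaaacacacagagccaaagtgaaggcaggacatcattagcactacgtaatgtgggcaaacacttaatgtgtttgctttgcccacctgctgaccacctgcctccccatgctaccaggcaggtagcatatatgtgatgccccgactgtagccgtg
The TATA box (TATAA) was searched on the sense strand of the last 50 bases. The other motifs were searched on both strands of the whole window, namely the CCAAT box, the homeodomain motifs TAATCC and TAATTA, which share the letters TAAT, and the forkhead motif TGTTTAC. The TATA box letters were found in the windows of *Trh* and *Cxcr4* and in 4.93% of all 32851 windows. CCAAT was found in those of *Hhex* and *Lhx1* and in 33.8% of all windows, and TAATTA in that of *Cer1* and in 4.84% of all. TAATCC, the letters preferred by homeodomains of the Goosecoid and Otx type, was in no window of the set and in 6.25% of all, and the forkhead letters TGTTTAC were in none of the set and in 3.17% of all. G and C made up 68.8% of the *Trh* window, 64.8% of the *Lhx1* window, and 51.6% of the *Cer1* window, with a median of 52.4% over all windows. These letters are a description of the sequence, and the arrays hold no measurement of binding.

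A gene was called above background where its deposited detection p, the share of the array's negative-control probes at least as bright, was under 0.01 on each of the 3 arrays. By this rule 6 of the 7 genes found were called, all but *Noto*, while 20.6% of all symbols were. The arrays differed in overall brightness. Of the called symbols 84.9% had their highest deposited signal on replicate 1 and 93.4% their lowest on replicate 3, and 9015, 8220, and 7191 symbols had a detection p under 0.01 on replicates 1, 2, and 3. The background level of an array was set at the dimmest 1-probe symbol that met the threshold with some control still brighter, and was 6.69, 6.66, and 6.58 on the log2 scale. It was not adjusted for symbols averaged over several probes, among them *Cer1*, *Lhx1*, and *Noto*. In what follows a signal is the deposited log2 value, and a level is the value after background correction (normexp) and quantile normalization, relative to the background level of its array. A one-sided limma test of the level over all symbols called 5 of the 7 genes, leaving out *Cer1* and *Noto*, with 25.8% of all symbols called. Its standard error was 0.11 for every gene, because limma estimated a single variance for all symbols, so the very small adjusted p-values rest on that shared estimate. A stricter reading of the detection p, the mean over the probes of a symbol under 0.01 on all 3 arrays, called the same 5 genes and 18.3% of all symbols. The background correction also sets the size of a level. Without normexp the level fell to 1.54 for *Lhx1* and 0.26 for *Cxcr4*, from 2.85 and 0.62. The median number of beads per symbol was 43 to 44, and 3 arrays limit the precision of every mean.

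**Figure D1:**
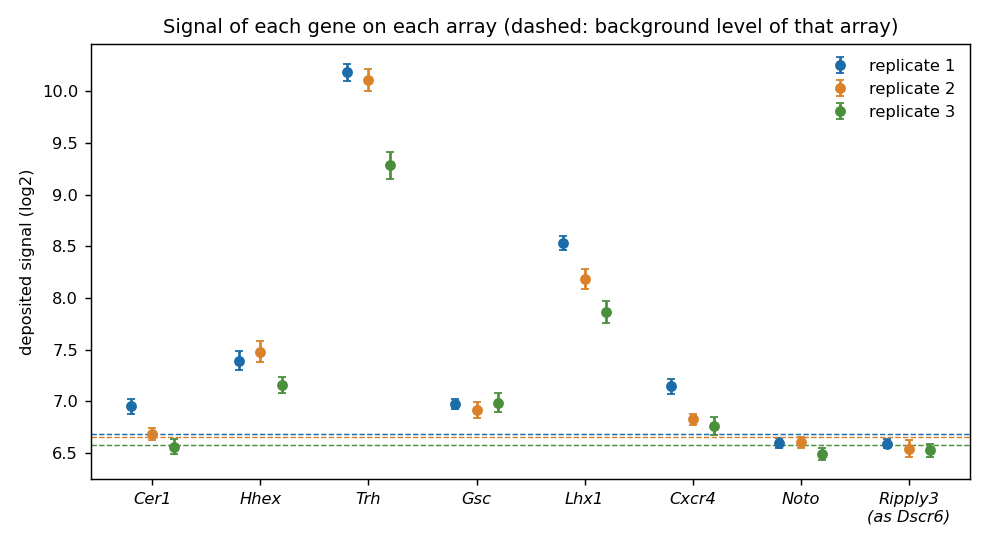
Deposited log2 signal (vertical axis) of each gene on each of the 3 arrays, with bars of 1 standard error over the beads of that array and a dashed line at the background level of each array. *Trh* and *Lhx1* lie far above the lines, *Gsc* is almost level across arrays, and *Noto* and *Dscr6* lie below the lines on every array.

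Among the secreted products, *Trh* encodes the precursor of thyrotropin-releasing hormone, known best from the hypothalamus and described also in early definitive endoderm. Its signals were 10.18, 10.11, and 9.28 on replicates 1, 2, and 3, from 44, 42, and 33 beads of 1 probe. Every array was far above its own background, by 11.3-fold, 10.9-fold, and 6.51-fold. No negative control was as bright on any array (detection p of 0). Replicate 3 was the dim one, with replicates 1 and 2 close to each other. Between replicates 1 and 3 the signal differed by 0.90, which is 5.86 times the standard error that the beads give this difference, whereas replicates 1 and 2 differed by 0.08, or 0.56 times that error. The median difference between replicates 1 and 3 over all called symbols was 0.47. After normalization the levels were 4.97, 5.01, and 4.43, a mean of 4.81 ± 0.33 (SD, n = 3). Over 10 alternatives the level ranged from 3.20 to 5.11, and the adjusted p in limma was at most 0.000261.

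*Cer1* encodes a secreted antagonist that binds Nodal and BMP ligands. Its signals, each a mean over 2 probes, were 6.95, 6.68, and 6.56 on replicates 1, 2, and 3. Only replicate 1 stood clear of the background, by 0.27 on the log2 scale. On replicate 2 the signal exceeded the background level by 0.03, and on replicate 3 it was 0.02 under it (a difference of -0.02). The detection p-values were nonetheless 2.28e-06, 0.000206, and 0.000416. These are values combined over probes. Read as the probability of a sum of 2 uniform values, they correspond to summed p-values of 0.00214, 0.0203, and 0.0288. On that reading both probes were under 0.01 on replicate 1, and at least 1 probe was not on replicates 2 and 3, where the mean p of the probes was 0.0101 and 0.0144. The level was 0.16 ± 0.29 (SD, n = 3) above background, with an adjusted p of 0.28 from limma and a range of 0.0092 to 1.00 over 10 alternatives. The call of *Cer1* thus rests on the combined p, and its signal was not above the spread between arrays.

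*Cxcr4*, the receptor of the chemokine CXCL12 and a widely used surface marker of definitive endoderm, had signals of 7.14, 6.83, and 6.76 from 32, 35, and 26 beads of 1 probe. All were above background, by 1.37-fold on replicate 1, 1.12-fold on replicate 2, and 1.13-fold on replicate 3. The detection p was 0 on replicates 1 and 3 and 0.00107 on replicate 2, where 1 of the 936 controls inferred was as bright. Replicate 1 was the brightest, 3.58 and 3.48 times the bead error above replicates 2 and 3, which differed by 0.65 times that error. These differences were 0.32 and 0.38, against medians of 0.17 and 0.47 over all called symbols. The normalized level was 0.62 ± 0.26 (SD, n = 3) above background, with levels of 0.90, 0.39, and 0.58. Its adjusted p from limma was 1.06e-07 and reached 0.0402 when the signals were left unnormalized, the highest of 10 alternatives.

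Of the homeobox genes, *Lhx1* encodes a LIM homeodomain factor needed for head formation. Its signals were 8.53, 8.19, and 7.87, each a mean over probes, of which the detection p on replicate 3 implies at least 2. Replicate 1 was highest and replicate 3 lowest, and all were well above background, by 3.60-fold, 2.89-fold, and 2.44-fold. The detection p was 0 on replicates 1 and 2 and 5.14e-06 on replicate 3, a sum of 0.00321 for 2 probes, so that each of these was under 0.01. The difference of 0.67 between replicates 1 and 3 was 5.17 times its bead error, and the median over all called symbols was 0.47. After normalization the arrays came close together, with levels of 3.06, 2.80, and 2.68 and a mean of 2.85 ± 0.19 (SD, n = 3). The adjusted p from limma was 4.44e-137 and at most 0.000619 over 10 alternatives.

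*Hhex*, a homeodomain repressor required for liver, thyroid, and forebrain development, had signals of 7.39, 7.48, and 7.16 from 35, 39, and 32 beads of 1 probe. The detection p was 0 on every array, and the signals were 1.63-fold, 1.77-fold, and 1.49-fold above background. Replicate 2 was the highest, 2.59 times the bead error above replicate 3, and replicates 1 and 2 differed by 0.67 times that error (-0.67 as replicate 1 minus 2). Between replicates 2 and 3 the signal differed by 0.32, against a median of 0.29 over all called symbols. Levels were 1.37, 1.74, and 1.52 above background, a mean of 1.55 ± 0.19 (SD, n = 3), with an adjusted p of 1.22e-41 from limma and at most 0.000841 over 10 alternatives.

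*Gsc*, the founding homeobox gene of the organizer, marks the prechordal plate and anterior endoderm. It had signals of 6.97, 6.92, and 6.99 from 42, 24, and 29 beads of 1 probe, with a detection p of 0 on every array. These are 1.22-fold, 1.20-fold, and 1.32-fold above background. No pair of arrays differed by more than the bead error of the difference. The SD of the 3 signals was 0.04, a value exceeded by nearly all called symbols (percentile 0.535), where the median SD was 0.25. *Gsc* was also among the 34 of 6357 called symbols with their highest deposited signal on the dim replicate 3. After normalization it stood apart from its other arrays there. Levels were 0.53, 0.62, and 1.18, a mean of 0.78 ± 0.35 (SD, n = 3), and the SD of the normalized values moved to percentile 96.9 among called symbols. Such a move was not particular to *Gsc*. For *Tbx1*, with a mean signal of 6.92, the SD was 0.02 in the signals and 0.41 in the normalized values. For *Cxcr4*, with a mean signal of 6.91, it was 0.21 and 0.23. The excess of *Gsc* on replicate 3 had the same direction with median centring, where it was 0.11 above the mean of the arrays, against 0.54 after normexp and quantile normalization. *Gsc* was above background in either case, with an adjusted p of 1.79e-11 from limma and at most 0.0248 over 10 alternatives.

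**Figure D2:**
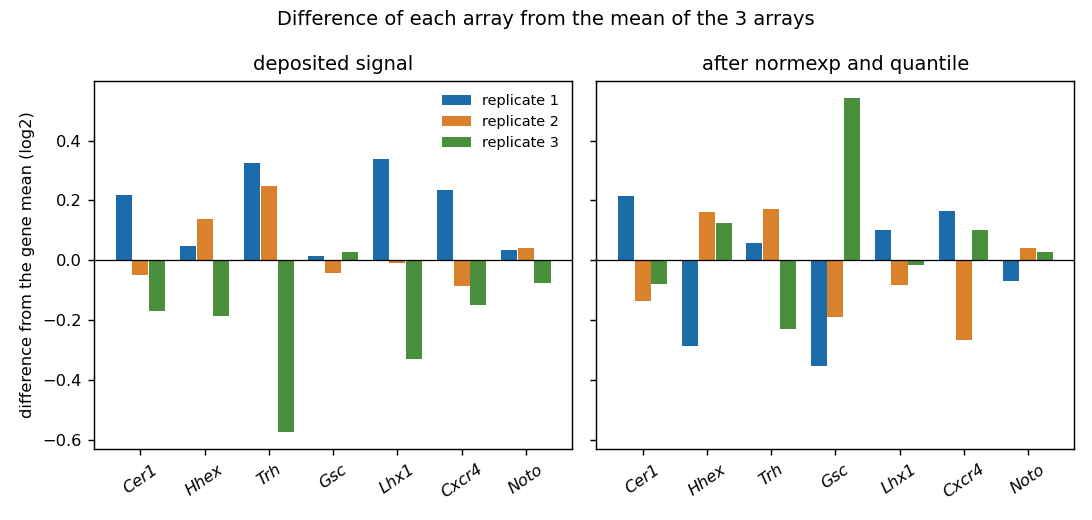
Difference of each array from the mean of the 3 arrays (log2, vertical axis) for the 7 genes found, in the deposited signals (left) and after normexp and quantile normalization (right). Replicate 3 is the lowest for all genes but *Gsc* on the left, and on the right *Gsc* stands 0.54 above its mean on that array.

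*Noto*, a homeobox gene of the node and notochord that is needed for node cilia, was the gene not called. Its signals, means over 3 probes, were 6.60, 6.61, and 6.49. All 3 lay under the background level of their array, a cut-off set from 1-probe symbols, with log2 differences of -0.09, -0.05, and -0.09. They were above the median signals of all symbols on the same arrays, 6.57, 6.51, and 6.42. The detection p-values were 0.0102, 0.0005, and 0.00247, so that replicate 1 missed the threshold narrowly and the others met it. As sums over 3 probes they stand for 0.394, 0.144, and 0.246, or a mean p per probe of 0.131, 0.0481, and 0.0819. At least 1 probe was thus not above background at 0.01 on any array. The level was -0.17 ± 0.10 (SD, n = 3) relative to background, and none of 10 alternatives of the limma test called it.

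*Dscr6*, the older symbol of *Ripply3*, whose product helps Tbx1 to act as a repressor in pharyngeal endoderm, had signals of 6.59, 6.54, and 6.52 from 42, 19, and 37 beads of 1 probe. All were under the background level, and the detection p was 0.111, 0.136, and 0.0331. No array met the threshold. *Tbx1* itself was called on all 3 arrays, and the related *Ripply1* and *Ripply2* on none.

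**Figure D3:**
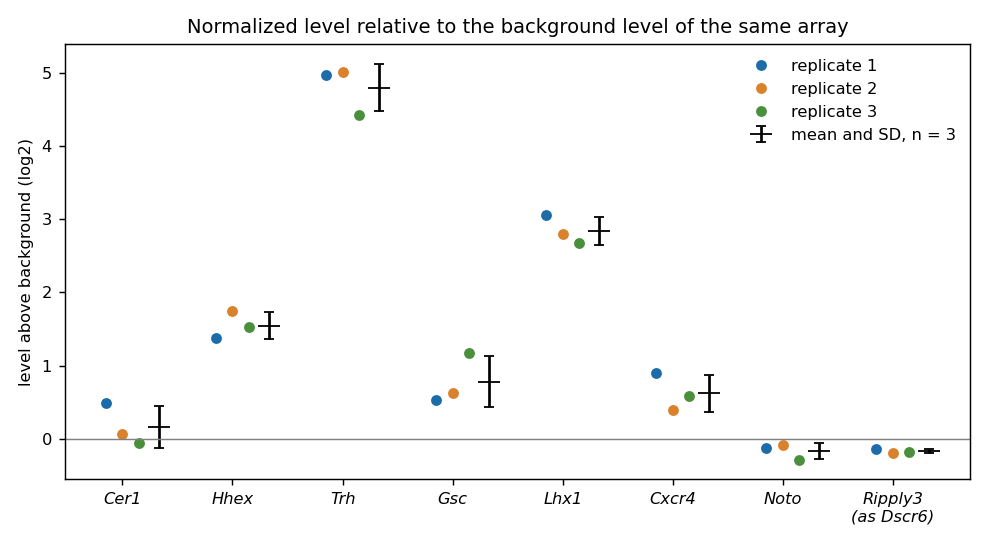
Normalized level of each gene above the background level of its array (log2, vertical axis), with a point for each array and the mean and SD over 3 arrays beside it. *Trh*, *Lhx1*, *Hhex*, *Gsc*, and *Cxcr4* lie above 0 on every array, *Cer1* spans 0, and *Noto* and *Dscr6* lie under it.

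Genes that act with these products were read from a list of 23, of which 21 had a row, and 9 were called (11 by limma), with a median signal of 6.88 against 6.49 over all symbols. With the mean p of the probes under 0.01 the count was 5 of 21, without *Ssbp3*, *Tle4*, *Tle5*, and *Mixl1*. For these, as for *Cer1*, the call rests on the combined p. With a detection p under 0.001 the count was also 5 of 21. Of all symbols, 20.6% were called by the detection rule and 25.8% by limma. The stricter rules called 18.3% with the mean p and 17.0% with a detection p under 0.001. Whether the share of partners exceeds that of all symbols was not tested. The Lhx1 partners *Ldb1*, the LIM-domain binding cofactor, and *Ssbp3*, which binds Ldb1, were among the 9 called by the detection rule. Their signals were 10.54 ± 0.38 (SD, n = 3) for *Ldb1* and 9.33 ± 0.31 for *Ssbp3*. Of the Nodal effectors, *Smad3* (8.72 ± 0.25), *Smad2*, and *Foxh1* were called, as was *Mixl1*, a target of the pathway in the streak. Of 5 genes of the Groucho family, whose full-length members serve Hhex, Gsc, and Ripply proteins as corepressors and whose short member Tle5 is known to oppose them, *Tle4* and *Tle5* (as *Aes*) were called and *Tle1* (called by limma), *Tle2*, and *Tle3* were not. The ligand of Cxcr4 did not meet the rule. *Cxcl12*, with 5 probes, had detection p-values of 0.0111, 0.0611, and 0.00538 although its mean signal was 7.63 ± 0.25 (SD, n = 3), and it was called by limma. The second CXCL12 receptor, *Ackr3* (as *Cxcr7*), was called on no array. Neither was any gene of the TRH system on the list, the receptors *Trhr* and *Trhr2*, the TRH-degrading enzyme *Trhde*, and the prohormone convertases *Pcsk1* and *Pcsk2*.

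Of 20 further genes of anterior and definitive endoderm, 10 were called (10 by limma), with a median signal of 6.87. Among the called genes were *Sox17*, *Foxa1*, *Foxa3*, *Otx2*, *Gata6*, *Sfrp5* (not by limma), *Cldn6*, *Krt8*, and *Krt18*, with signals of 11.33 ± 0.52 (SD, n = 3) for the tight-junction gene *Cldn6*, 9.46 ± 0.21 for the head gene *Otx2*, and 9.44 ± 0.56 for the keratin *Krt8*. *Dkk1* and *Frzb*, secreted Wnt antagonists, were called on no array, nor were *Hesx1*, *Nkx2-1*, *Gata4*, *Prdm1*, *Pyy*, and *Epcam* (as *Tacstd1*). *Foxa2* met the threshold on 1 array. *Cdh1* met the threshold on no array, yet its signal of 8.18 ± 0.39 over 2 probes was called by limma. Of 16 genes listed for node and notochord, 7 were called and 8 by limma, with a median signal of 6.77. The called genes were *T* (10.17 ± 0.61), *Gdf1* (9.07 ± 0.10), *Fgf8* (8.19 ± 0.30), *Dynlrb2*, *Shh*, *Chrd*, and *Nog*. The last pair encodes BMP antagonists of the organizer. RNA of the whole embryonic region does not show which tissue gave these signals. *Lefty1*, *Dand5*, *Pkd1l1*, *Tdgf1*, *Rfx3*, and *Dnah11* (as *Dnahc11*, called by limma) were called on no array, and *Nodal*, *Cfc1*, and *Foxj1* on 1 each. A missing call does not show that a gene is silent. By in situ hybridization the study found *Nodal* around the node of wild-type EHF embryos. For 7 of the 9 listed genes called by limma and not by detection p, several probes were averaged.

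**Figure D4:**
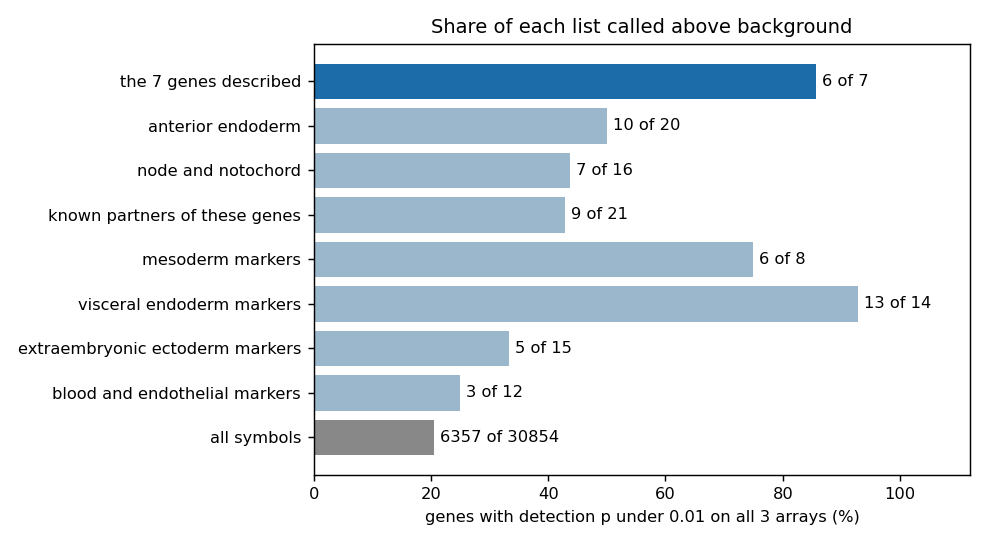
Share of genes with a detection p under 0.01 on all 3 arrays (horizontal axis, %), for the 7 genes described, for each other list, and for all symbols, with counts beside the bars. The called genes are 10 of 20 for anterior endoderm and 7 of 16 for node and notochord, against 20.6% of all symbols.

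Markers of visceral endoderm, mesoderm, blood and endothelium, and extraembryonic ectoderm were read beside the genes of this set. Visceral endoderm markers were called for 13 of 14, all but *Afp*. Their normalized values, unlogged and with no background level subtracted, summed to 11703, 14333, and 8960 on replicates 1, 2, and 3. Sums here cover called and uncalled genes of a list, and the brightest genes weigh most. The 13 called markers lay a median of 0.37 above their own means on replicate 2, and 0.32 with median centring. *Hhex* was also highest there under both scalings, 0.16 and 0.13 above its own mean, but after normalization only 0.04 above replicate 3. *Trh* was highest there after normalization, 0.17 above its own mean, but on replicate 1 with median centring. *Cer1* was lowest there after normalization, at -0.14, but on replicate 3 with median centring. The other called genes lay under their own means on replicate 2 in both scalings, by -0.27 and -0.10 for *Cxcr4*, -0.19 and -0.05 for *Gsc*, and -0.08 and -0.02 for *Lhx1*. Of the 6 called genes, *Hhex* and *Trh* were thus above their means on that array and the other 4 under theirs. For *Hhex*, *Trh*, and *Gsc* the deposited signals of replicates 1 and 2 differed by less than the bead error. For *Cer1*, *Lhx1*, and *Cxcr4* they differed by more. Whether any gene follows the visceral endoderm markers was not tested. Mesoderm markers were called for 6 of 8, with sums from 847 to 986, and blood and endothelial markers for 3 of 12 (*Tal1*, *Lmo2*, and *Etv2* as *Etsrp71*), with sums from 1126 to 1684. The globins *Hba-x*, *Hbb-bh1*, and *Hbb-y* were called on no array. Extraembryonic ectoderm markers were called for 5 of 15, with sums from 2265 to 2847. The called ones were *Bmp4*, *Cdx2*, *Ets2*, *Rhox5*, and *Tfap2c* (as *Tcfap2c*). *Ascl2*, *Elf5*, *Eomes*, *Gcm1*, *Pcsk6*, and *Wnt7b* were called on no array. By the same rule 20.6% of all symbols were called. The part of these tissues in the signals of *Cer1*, *Hhex*, *Trh*, *Lhx1*, *Gsc*, and *Cxcr4* was not tested.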

How the data were processed

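Total RNA of 3 samples, replicates 1 to 3 of a single group, was profiled on Illumina arrays. The authors deposited, per gene symbol, a log2 signal that was not normalized between arrays, the mean number of beads, a standard error over beads, and a detection p-value. The deposited bead standard error is a signal on the linear scale, since it rose in proportion to the unlogged signal, and it was divided by the signal and by the natural log of 2 to reach the log2 scale. For symbols with several probes it may be an average and is approximate. The labels and the study's methods name Partek, with no normalization stated. A genome build for the arrays is not given in the sources used here.

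Probes per symbol were inferred as the smallest number making bead means whole, or from detection p-values off the steps of 1 in 936, giving several probes for 8858 symbols. For 2 or 3 probes, 98.2% of combined values lay on the steps of a sum, within a tolerance of 0.02. Levels were set by normexp (fitted to the detection p of symbols with 1 probe, offset 16), quantile normalization, and subtraction of the array's background level. limma (lmFit, eBayes, one-sided, Benjamini-Hochberg over 30854 symbols, threshold 0.05) was tested on simulated data. R 4.3.3, limma 3.58.1, Python 3.11.15, numpy 2.4.6, and pandas 2.3.3 were used.

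The genes and lists were chosen with earlier results of these data known. All 8 genes are named, and from other lists the called genes, with values for a few. Older symbols were matched through RefSeq (GRCm38.p6), and 3 of 109 listed genes were not analysed here. A further listed gene is counted but not reported here by name.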

Additional observations from a re-analysis of the deposited data

How the results depend on the processing

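The count of 6 genes above background ranged from 5 to 7. It was 7 with a detection p under 0.05, on at least 2 of 3 arrays, or on at least 1, each adding *Noto*. These looser rules called 24.7%, 25.6%, and 33.0% of all symbols. It was 5 with a detection p under 0.001, which dropped *Cxcr4* and called 17.0% of all symbols. It was also 5 in the limma test and with the mean p of the probes in place of the combined p, an alternative added once the data had been seen, both without *Cer1*. Leaving out each replicate gave 6 to 7, with 21.1% to 24.1% of all symbols called, and *Noto* was called without replicate 1. In the limma test, 5 of the 7 genes were called in 8 of 10 alternatives and 6 in the others, where *Cer1* was added. The main limma test called 25.8% of all symbols, and the shares in its alternatives are not given here. The *Cer1* level was 0.26 with a background level set from detection p-values between 0.01 and 0.05, and 0.32 without replicate 3. The former background level was 4.77, 4.81, and 4.93 on replicates 1, 2, and 3, against 4.82, 4.89, and 5.07 in the main test. Being lower on each array, it raised the level of every symbol. Over the runs that left out a replicate the *Cer1* level ranged from -0.00109 to 0.32, and the count of genes called from 5 to 6. *Trh*, *Lhx1*, *Hhex*, *Gsc*, and *Cxcr4* were called in all 10 alternatives. The 53 of 106 listed genes above background ranged from 45 to 67, and from 53 to 57 without a replicate. The 45 came with the mean p of the probes, which called 18.3% of all symbols. The 67 came with detection on at least 1 array. For the normalized values of the 7 genes, with no background level subtracted, the median SD between arrays was 0.21. It was 0.20 in the deposited signals, 0.29 with median scaling, and 0.09 with quantile normalization alone. The SDs given for levels above background are a different measure. No paired analysis was possible because the 3 samples form 1 group, with nothing to pair. The number of arrays and the closeness of *Cer1*, *Noto*, *Gsc*, and *Cxcr4* to background limit what can be said of them.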
